A study of Mus musculus with 6 samples.

Results

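Fibroblast growth factor (FGF) signalling was described in mouse lung and in chemically induced mouse lung tumours through 10 genes: the 4 FGF receptor genes Fgfr1, Fgfr2, Fgfr3 and Fgfr4, and 6 genes of ligands made in lung, Fgf1, Fgf2, Fgf7, Fgf9, Fgf10 and Fgf18. They were picked by name among the 33924 gene names of a table of read counts, and all 10 were found. The libraries came from bulk tissue of FVB/NJ mice, an inbred strain, collected at 6 months. Control lung (3 libraries, replicates 1, 2 and 3) was labelled as normal lung of mice given saline, and tumour tissue (3 libraries, replicates 1, 2 and 4) came from mice given the carcinogen urethane at 1 g per kg into the peritoneum. The labels name no transgene, do not say how tumours were separated from the surrounding lung, or the sex of the mice, and do not state whether the libraries stem from separate animals, so p-values measure the spread between these libraries, which may be technical.

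FGF ligands are secreted proteins that bind receptor tyrosine kinases together with heparan sulphate, a sugar chain of the cell surface and matrix, and the activated receptors signal mainly through adaptor proteins to the RAS and ERK pathway. In the developing lung, mesenchymal cells make FGF10 and FGF7, which act on the form of FGFR2 made by epithelial cells and drive branching and growth, while FGF9 from the mesothelium and the epithelium acts on the mesenchyme. FGF1 and FGF2 lack a classical secretion signal and bind several receptors, and FGF18 acts mainly through FGFR3 and related receptors. Splicing gives FGFR1, FGFR2 and FGFR3 an epithelial and a mesenchymal form with different ligands; counts per gene do not separate these forms.

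The 6 libraries held 38996532 to 62336537 counted reads, and levels are given as CPM, which is reads relative to the library total after TMM scaling between libraries. The 8 marker genes of AT2 cells, which line the alveoli and secrete surfactant, summed to 9801 to 16290 CPM in the controls and 28729 to 65085 CPM in the tumour libraries, and 8 markers of epithelium in general to 412 to 501 CPM and 1047 to 1522 CPM. The 9 fibroblast markers summed to 1549 to 1778 CPM in the controls and 218 to 415 CPM in the tumour libraries, 8 markers of smooth muscle and pericytes to 859 to 1161 CPM and 96.8 to 136 CPM, 5 mesothelial markers to 67.8 to 78.2 CPM and 0.933 to 3.04 CPM, and 8 endothelial markers to 3042 to 4067 CPM and 203 to 294 CPM. Of the remaining lists, all club cell, ciliated cell and cardiac muscle markers fell (5 of 5 in each). So did the T, NK and B cell markers (8 of 8). Of the macrophage markers 1 of 6 fell, and 6 of 6 proliferation markers rose. Over all genes tested, 23.8% were called lower and 18.1% higher, at the threshold given below. In all tumours, 1 ciliated marker was at 0. Tumour replicate 2 stood apart in sex-linked genes, with 3360 CPM of Xist where the other 5 libraries had at most 32.9 CPM. The Y-linked genes Ddx3y, Eif2s3y, Kdm5d and Uty were at most 0.216 CPM in it and at least 37.6 CPM in the other 5. It thus reads as female and the other 5 as male, so the tumour group mixes sexes and the controls do not. Whether those 5 stem from separate animals is not shown by this. Without tumour replicate 2 each of the 10 members kept its direction and its call. In bulk tissue, fewer cells of a type and less RNA per cell cannot be told apart, and this holds for every difference below.

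RefSeq start sites on GRCm38.p6 were used for 8 of the 10 members, and no window was taken for Fgfr1 and Fgf1. The 250 bases upstream are shown for Fgfr2, the receptor gene that rose, and Fgf7, Fgf10 and Fgf18, the 3 ligand genes that fell. They were searched on both strands for the cores of the FOXA, NKX2-1 and ETS motifs, the GC box and the TATA box, each spelled out below, and capitals mark each match; the motifs did not overlap each other in these 4 windows. The windows lie at chr7:130266809-130267058 (minus strand), chr2:126034408-126034657 (plus strand), chr13:118714449-118714698 (plus strand) and chr11:33147401-33147650 (minus strand).
Fgfr2: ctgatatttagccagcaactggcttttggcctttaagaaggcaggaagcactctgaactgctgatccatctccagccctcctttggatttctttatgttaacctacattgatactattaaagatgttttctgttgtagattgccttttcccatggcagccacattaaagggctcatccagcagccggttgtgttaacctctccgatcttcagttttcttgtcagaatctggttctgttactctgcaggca
Fgf7: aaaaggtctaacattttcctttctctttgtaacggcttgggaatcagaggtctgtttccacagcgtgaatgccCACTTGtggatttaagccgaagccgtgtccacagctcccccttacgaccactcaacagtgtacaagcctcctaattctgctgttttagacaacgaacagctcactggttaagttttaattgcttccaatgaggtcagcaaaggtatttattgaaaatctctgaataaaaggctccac
Fgf10: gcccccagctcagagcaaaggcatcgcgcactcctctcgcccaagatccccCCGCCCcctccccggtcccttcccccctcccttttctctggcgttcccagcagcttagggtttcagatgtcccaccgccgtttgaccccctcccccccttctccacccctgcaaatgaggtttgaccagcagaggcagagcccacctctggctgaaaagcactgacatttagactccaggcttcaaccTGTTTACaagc
Fgf18: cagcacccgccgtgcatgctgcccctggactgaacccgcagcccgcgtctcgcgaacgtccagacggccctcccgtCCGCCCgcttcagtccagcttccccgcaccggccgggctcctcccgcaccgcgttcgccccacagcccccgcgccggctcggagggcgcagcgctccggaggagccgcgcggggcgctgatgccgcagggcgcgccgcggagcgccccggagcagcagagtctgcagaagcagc
The Fgf10 window held a FOXA core, TGTTTAC, 11 bases upstream of the start, and 3.17% of all 32851 windows of this length hold this motif on either strand. It also held a GC box, GGGCGG read on the minus strand relative to the gene, at 199 bases, and 32.7% of windows hold one. The Fgf7 window held an NKX2-1 core, CAAGTG on the opposite strand, at 177 bases, a motif of 11.6% of windows. The Fgf18 window held a GC box at 174 bases, also on the opposite strand. None of the searched letters occurred in the Fgfr2 window. The ETS core, CCGGAAG, which 6.91% of all windows hold, was in none of the 4. The TATA box, TATAAA, held by 12.4% of all windows, was in none of them either. The windows also differed in base composition: 44% of bases were G or C for Fgfr2 and 43.6% for Fgf7, compared with 61.2% for Fgf10 and 77.2% for Fgf18, around a median of 52.4% over all windows. The Fgf18 window held 37 CG pairs and the Fgfr2 window 2. No searched motif was in all 3 windows of the ligand genes that fell, and a match here is a description of letters only.

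The comparison asked which of these genes differ between tumours of urethane-treated mice and lung of mice given saline. No library came from tumour-free lung of urethane-treated mice, so tumour tissue and exposure to the carcinogen cannot be told apart. Of the 10 members, 3 rose (Fgfr2, Fgf2 and Fgf9), 6 fell (Fgfr1, Fgfr3, Fgfr4, Fgf7, Fgf10 and Fgf18) and Fgf1 was not called. Over all 20001 genes tested, 42.0% were called at an adjusted p under 0.05, 18.1% as higher in tumours and 23.8% as lower (edgeR quasi-likelihood test with Benjamini-Hochberg adjustment). All 10 members passed the filter on low counts. Fgf9, with 7, 6 and 6 reads in control lung, passed it through the tumour libraries alone. Fgf18, with 8, 16 and 11 reads in tumours, passed it through the controls alone. Each thus entered the test only through the group where it was higher. For 9 of the 10 members the 3 tumour libraries lay wholly above or below the 3 controls, as they did for 56.0% of the genes tested. The median log2 fold change was -2.01 for the 4 receptors and -1.60 for the 6 ligands, and 0.01 for all genes tested. Against a change of at most 2-fold, the same 9 members passed, with adjusted p from 0.000128 to 0.0277, where 19.8% of all genes did.

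**Figure D1:**
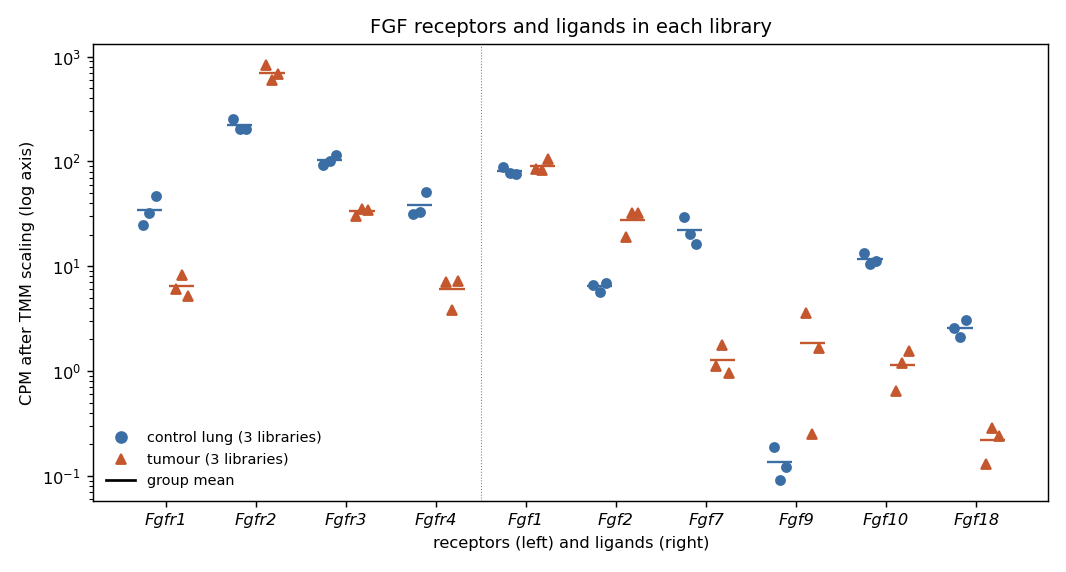
Level of each FGF receptor gene (left) and ligand gene (right) in every library, in CPM on a log axis; circles are the 3 control lung libraries, triangles the 3 tumour libraries, and lines the group means. Fgfr2 was the only receptor gene with all tumour libraries above all controls, and Fgf9 had the widest spread among tumours, from 0.251 to 3.597 CPM.

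Among the receptors, Fgfr2, the receptor for FGF7 and FGF10 on epithelial cells, had 254, 204 and 202 CPM in control replicates 1, 2 and 3 and 835, 599 and 675 CPM in tumour replicates 1, 2 and 4. All tumour libraries lay above all controls, and the lowest tumour was tumour replicate 2. The difference was 1.68 ± 0.20 on the log2 scale (SE, n = 3 per group, adjusted p = 0.000292), a 3.20-fold rise. Of all genes tested, 94.4% had a lower log2 fold change. The gene lies on mm9 chromosome 7 (137305965 to 140315033, minus strand) with 7796 exon bases in the deposited table, of which 314 (4.03%) lie inside exons of Ctbp2, a distant gene reached by exons annotated far from the rest of Fgfr2. With all reads of Ctbp2 taken off, the most that sharing could remove, 7915 to 10700 reads of Fgfr2 were left in control lung and 29101 to 46587 in tumours, and the log2 fold change was 1.85.

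The other receptor genes lie on mm9 chromosome 8 (Fgfr1, 26624126 to 26686186), chromosome 5 (Fgfr3, 34064373 to 34079716) and chromosome 13 (Fgfr4, 55254001 to 55270120), all on the plus strand. Fgfr4, a further receptor and one of the 2 chosen as epithelial, moved the other way from Fgfr2. It had 31.7, 32.8 and 51.3 CPM in the controls and 7.11, 3.84 and 7.23 CPM in the tumour libraries, a log2 difference of -2.67 ± 0.31 (SE, adjusted p = 0.000273). The groups did not overlap, and control was 6.37-fold higher. Fgfr3, the receptor best known for restraining bone growth and a partner of FGF9 and FGF18, had 91.7, 100.05 and 116 CPM in the controls and 30.1, 35.3 and 34.4 CPM in the tumour libraries. Its tumour libraries varied little, and its log2 fold change was -1.62 ± 0.15 (adjusted p = 0.000101). Fgfr1, a receptor made by many mesenchymal cells, had 24.8, 31.9 and 46.5 CPM in the controls and 6.08, 8.32 and 5.16 CPM in the tumour libraries, with no overlap and a log2 fold change of -2.40 ± 0.29 (adjusted p = 0.00032).

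Per kilobase of exon, the receptors together amounted to 57.9, 53.9 and 62.9 CPM in the controls and 114, 84.1 and 94.3 CPM in the tumours. Fgfr2 made up 56.3%, 48.6% and 41.2% of this sum in control lung and 93.8%, 91.4% and 91.9% in tumours, a mean of 48.7% ± 7.56 and 92.3% ± 1.26 (SD, n = 3). Fgfr3 took 25.6% ± 2.22 of the receptor sum in control lung and 5.08% ± 1.15 in tumours, Fgfr4 18.5% ± 3.96 and 1.73% ± 0.44, and Fgfr1 7.28% ± 1.93 and 0.856% ± 0.32. Shares within a library do not depend on the scaling between libraries. The level of Fgfr2 per kilobase was 1.79 to 3.65 times that of Fgfr4 in the control libraries and 42.6 to 71.1 times in the tumour libraries. Control lung thus held reads of several receptors side by side, and tumour tissue held mostly those of Fgfr2.

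**Figure D2:**
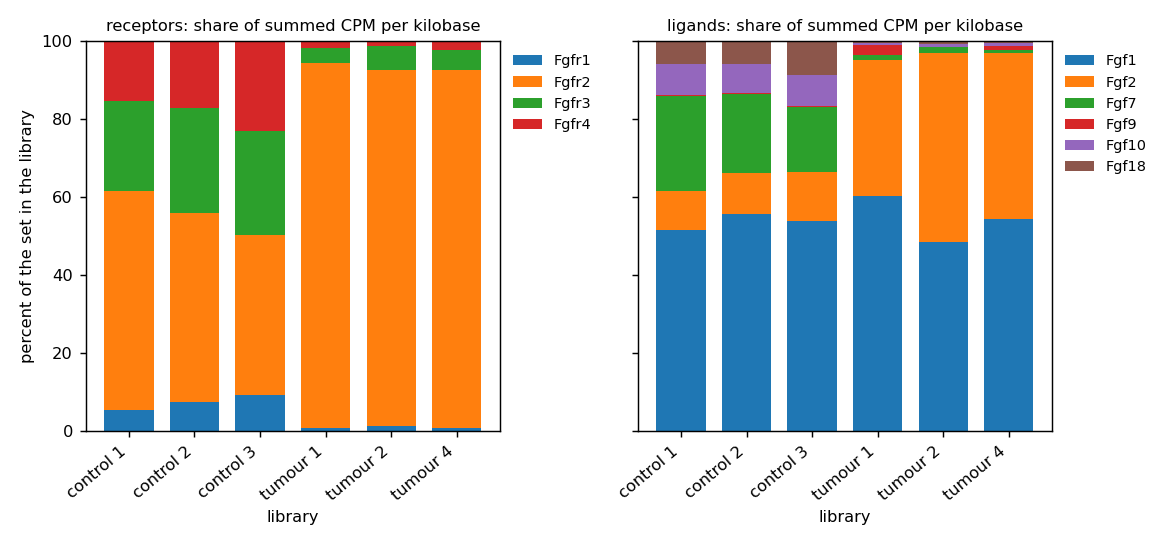
Make-up of the receptor set (left) and of the ligand set (right) in each library, as percent of the summed CPM per kilobase of exon. Fgfr2 filled 41.2% to 56.3% of the receptor bars in control lung and 91.4% to 93.8% in tumours, and Fgf2 filled 11.1% of the ligand bars on average in control lung and 42.0% in tumours. Reads of the Fgf2 row may stem in part from overlapping gene names.

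The mesenchymal ligands had the steepest falls. Their genes lie on mm9 chromosome 2 (Fgf7, 125860394 to 125916921), chromosome 13 (Fgf10, 119458598 to 119580922) and chromosome 11 (Fgf18, 33017430 to 33047400, minus strand). Fgf7, also called keratinocyte growth factor, a mitogen of AT2 cells, had 29.3, 20.1 and 16.3 CPM in the controls and 1.13, 1.76 and 0.955 CPM in the tumour libraries. Every tumour library was below every control by a wide margin, with a log2 fold change of -4.09 ± 0.34 (SE, adjusted p = 5.79e-05), 17.0-fold. Of all genes tested, 5.09% had a lower log2 fold change. Fgf10, the ligand that directs lung budding, had 13.4, 10.4 and 11.2 CPM in the controls and 0.638, 1.20 and 1.56 CPM in the tumour libraries (log2 difference -3.37 ± 0.35, adjusted p = 0.000171). Fgf18, a ligand of late lung development and alveolar formation, had 2.58, 2.11 and 3.07 CPM in the controls and 0.131, 0.287 and 0.239 CPM in the tumour libraries (log2 difference -3.56 ± 0.41, adjusted p = 0.000264). Its tumour values rest on 8, 16 and 11 reads. The 123 exon bases that Fgf10 shares with Gm16263 (2.67% of its length) left its log2 fold change at -3.33 when all reads of Gm16263 were taken off.

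The ratios of Fgfr2 to Fgf7 and to Fgf10 were higher in every tumour library than in every control. This follows from the rise of Fgfr2 and the fall of both ligand genes, each without overlap. Ratios of Fgfr2 to the other ligand genes were not taken. Per kilobase, the level of Fgfr2 was 3.61, 4.23 and 5.16 times that of Fgf7 in control lung and 308, 142 and 295 times in tumours. Against Fgf10 it was 11.15, 11.55 and 10.61 times in control lung and 773, 294 and 255 times in tumours. The tumour ratios against Fgf10 rest on 39 to 72 reads of that ligand per library.

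Fgf1, a ligand that binds all 4 receptors, was the member that was not called. It had 88.3, 78.1 and 75.3 CPM in the controls and 84.4, 82.4 and 105 CPM in the tumour libraries, and the groups overlapped. Its log2 fold change was 0.17 with a 95% interval from -0.18 to 0.53 (adjusted p = 0.409), which leaves out a change of 2-fold in either direction at this depth. Fgf1 was the ligand with the highest level per kilobase in both groups, 17.3 ± 1.47 CPM for the controls and 19.5 ± 2.74 CPM for the tumours (SD, n = 3), and its share of the ligand sum was 53.6% ± 2.04 and 54.4% ± 5.88. The ligand sum itself was 30.1 to 36.9 CPM per kilobase in control lung and 30.1 to 41.7 in tumours. This sum and the shares of it include the Fgf2 row, whose count is uncertain as described next.

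Fgf2 (mm9 chromosome 3, 37211441 to 37304299), basic FGF, a mitogen of fibroblasts and endothelial cells, had 6.66, 5.73 and 6.90 CPM in the controls and 19.0, 31.9 and 32.1 CPM in the tumour libraries. All tumour libraries were above all controls, tumour replicate 1 being the lowest, with a log2 fold change of 2.11 ± 0.24 (SE, adjusted p = 0.000256). Its share of the ligand sum was 11.1% ± 1.44 in control lung and 42.0% ± 6.78 in tumours. This count is uncertain, because 297 of the 1802 exon bases of Fgf2 (16.5%) lie inside exons of Nudt6, Cetn4 or Bbs12 and the counting was given no strand setting. Nudt6, which runs antisense to Fgf2 and shares its last exon region, rose as well, by 1.58 ± 0.18 (adjusted p = 0.000234), with 231, 464 and 308 reads in control lung and 1044, 1193 and 929 in tumours; Fgf2 had 245, 377 and 340 and 1161, 1778 and 1480. The reads of Fgf2 were 0.812 to 1.1 times those of Nudt6 in control lung and 1.11, 1.49 and 1.59 times in tumours. With all reads of Nudt6 taken off, Fgf2 kept 14, 0 and 32 reads in control lung and 117, 585 and 551 in tumours (log2 fold change 4.61, adjusted p = 0.0108), but with those of all 3 overlapping names taken off, reads were left in tumour replicate 2 alone (143). How many reads of the Fgf2 row came from Fgf2 RNA cannot be told from counts per name.

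Fgf9 (mm9 chromosome 14, 58689384 to 58731174), a ligand of mesothelium and fetal airway epithelium, was close to absent in control lung, with 7, 6 and 6 reads. In tumours it had 220, 14 and 77 reads, which are 3.597, 0.251 and 1.67 CPM compared with 0.190, 0.0912 and 0.122 CPM in the controls. The groups did not overlap, yet tumour replicate 2, at 14 reads, was close to the highest control, and tumour replicate 1 was far above the other tumours. The log2 fold change was 3.80 ± 0.91 (SE, adjusted p = 0.0107, 95% interval 1.70 to 5.91). The call was lost without control replicate 2 (adjusted p = 0.0532), without control replicate 3 (0.0579) and with limma-voom (0.0738). Without tumour replicate 1 the log2 fold change was 2.88 and without tumour replicate 2 it was 4.33 (adjusted p = 0.0166 and 5e-04). The 5 mesothelial markers were all lower in tumours, with sums of 2.11, 3.04 and 0.933 CPM in tumour replicates 1, 2 and 4. Their part in the level of Fgf9 was not tested.

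Per kilobase of exon, the order of the levels in control lung was Fgfr2 (28.2 ± 3.79 CPM per kilobase, SD, n = 3), Fgf1 (17.3), Fgfr3 (14.9), Fgfr4 (10.9), Fgf7 (6.75), Fgfr1 (4.27), Fgf2 (3.57), Fgf10 (2.54), Fgf18 (2.18) and Fgf9 (0.0315). Only Fgfr2 at the top, Fgf9 at the bottom and the step from Fgf2 to Fgf10 were free of overlap between neighbours over the 3 libraries. In tumours the order was Fgfr2 (90.2 ± 15.4), Fgf1 (19.5), Fgf2 (15.4), Fgfr3 (4.84), Fgfr4 (1.71), Fgfr1 (0.809), Fgf9 (0.431), Fgf7 (0.394), Fgf10 (0.247) and Fgf18 (0.184). Here the libraries of Fgf1 and Fgf2 overlapped, as did all neighbours from Fgfr1 downward. The steps from Fgfr2 to Fgf1, Fgf2 to Fgfr3, Fgfr3 to Fgfr4 and Fgfr4 to Fgfr1 were free of overlap. In both orders the place of Fgf2 rests on the uncertain count described above.

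Since the marker lists differed between the groups, each member was also set against marker lists within each library, as the log2 CPM of the member minus the mean log2 CPM of the list. Fgfr2 stood 2.51, 2.41 and 2.47 log2 units above the general epithelial list in control lung and 2.62, 2.43 and 2.74 above it in tumours, so the groups overlapped although the CPM values did not. Against the AT2 list the groups also overlapped, with means of -1.74 ± 0.14 for controls and -2.16 ± 0.62 for tumours (SD, n = 3). Fgf2 likewise overlapped between groups against both lists. For Fgfr4 the difference from the epithelial list was -0.08 ± 0.51 for controls and -4.29 ± 0.52 for tumours. It overlapped between groups against markers of AT1 cells, the thin lining cells of the alveolus, at -2.47 ± 0.36 and -2.62 ± 0.73, and against fibroblast markers, at -1.45 ± 0.31 and -1.14 ± 0.98. Fgfr4 also overlapped against the smooth muscle and pericyte, mesothelial and endothelial lists, with tumour minus control at 0.59, 1.38 and 1.08. The overlap was thus not particular to AT1 cells. The 6 AT1 markers summed to 1717 to 1808 CPM in the controls and 363 to 428 CPM in the tumour libraries. The receptors chosen as epithelial thus moved in opposite directions, Fgfr2 rising as the epithelial markers did and Fgfr4 falling.

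The mesenchymal ligands were set against the mesenchymal list in the same way. Against fibroblast markers, Fgf10 stood at -3.14 ± 0.30 in control lung and -3.55 ± 0.55 in tumours and Fgf18 at -5.31 ± 0.27 and -5.71 ± 0.23 (SD, n = 3), with overlap in both cases. Both also overlapped against the smooth muscle and pericyte, mesothelial and endothelial lists, with tumour minus control from -0.13 to 0.67. Their overlap was thus not particular to fibroblasts. Against the fibroblast list Fgf7 stood at -2.27 ± 0.55 and -3.34 ± 0.28 without overlap, 1.07 log2 units lower in tumours. The list's own members ranged from -0.26 (Col1a1) to -6.28 (Tcf21). Against the smooth muscle and pericyte list Fgf7 stood at -1.61 ± 0.77 and -2.40 ± 0.25. These groups did not overlap either, though control replicate 3 (-2.09) and tumour replicate 2 (-2.11) nearly met. Against the mesothelial and endothelial lists Fgf7 overlapped between groups. Fgfr1 was 0.62 units higher relative to the fibroblast list, at -1.63 ± 0.35 and -1.01 ± 0.31, also without overlap. The AT1 list was the only list against which Fgfr1 overlapped between groups, at -2.65 ± 0.48 and -2.49 ± 0.24. Fgfr3 overlapped against none of the lists. For Fgf1 the difference was 3.16 units higher in tumours relative to fibroblasts and -1.37 relative to epithelium, with no overlap in either. The part of cell composition in any of these differences was not tested.

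**Figure D3:**
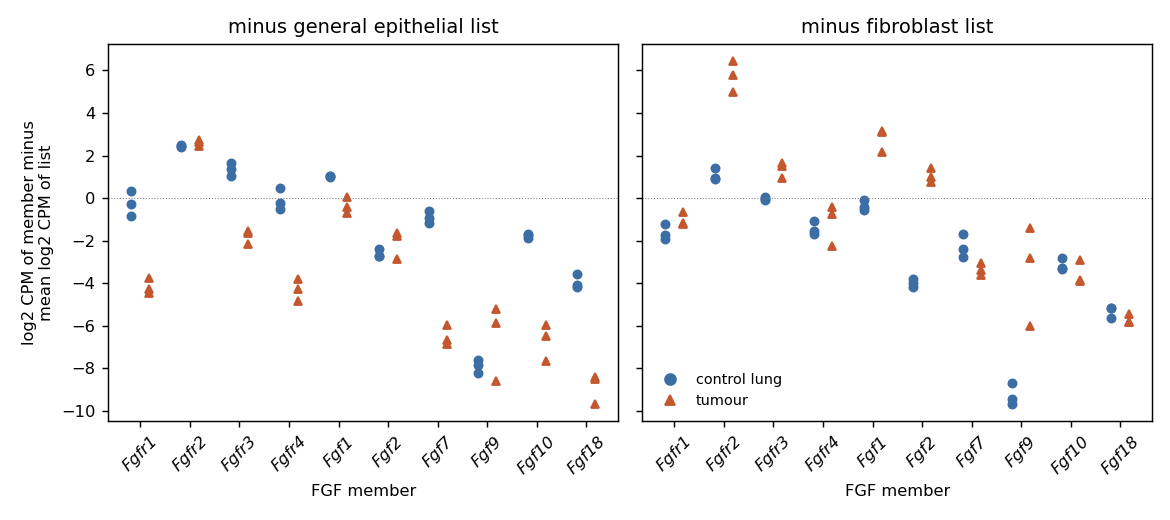
Log2 CPM of each FGF member minus the mean log2 CPM of the general epithelial list (left) or of the fibroblast list (right), 1 point per library; circles are control lung and triangles tumours. Fgfr2, Fgf2 and Fgf9 overlapped between groups on the left, and Fgfr4, Fgf10 and Fgf18 on the right.

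**Figure D4:**
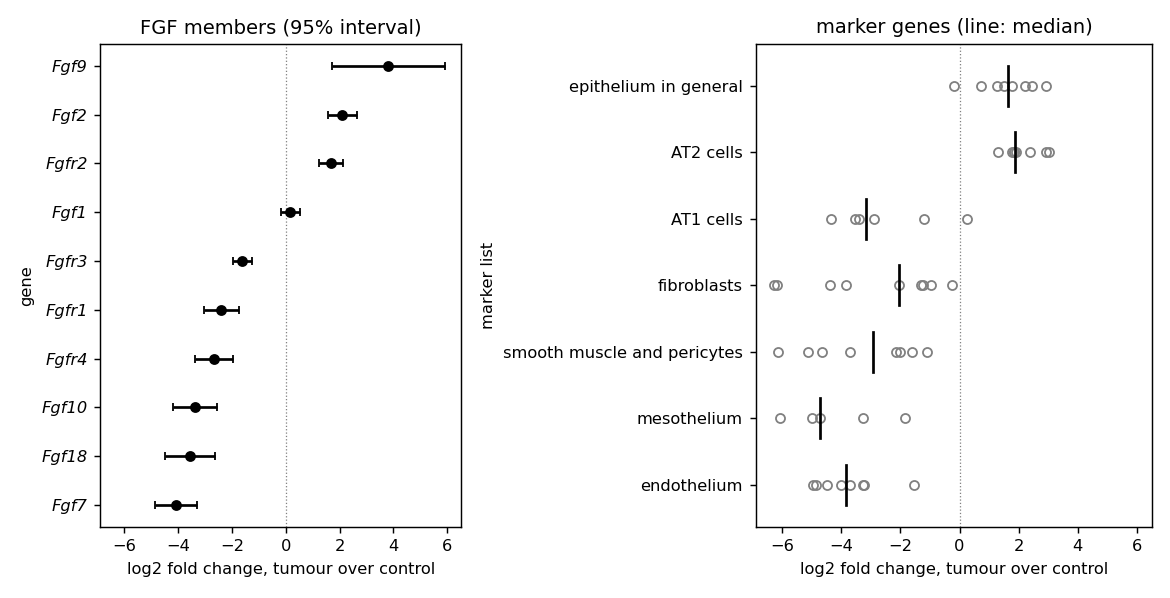
Log2 fold change of each member with its 95% interval (left) and of the single marker genes of 7 cell type lists (open circles, right; the line is the list median). Fgf9, Fgf2 and Fgfr2 lay on the side of the medians of the epithelial and AT2 lists (1.64 and 1.89), Fgf1 at 0.17, and the other 6 on the side of the medians of the other 5 lists.

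Other parts of the pathway were read from lists. Of 20 known targets and feedback genes of FGF signalling, 14 rose and 3 fell, with a median log2 fold change of 1.24. Over all genes the shares were 18.1% and 23.8% and the median was 0.01. The lists were chosen with earlier results of these data known, so this count is not independent of them. Other receptors of the RAS and ERK pathway regulate these genes too. Sox9, a transcription factor of the distal lung tip, had 0.136, 0.152 and 0.325 CPM in the controls and 83.1, 40.4 and 52.1 CPM in the tumour libraries (log2 difference 8.14 ± 0.44). Etv4, an ETS transcription factor, had 0.380 to 0.548 CPM in the controls and 16.6 to 37.2 CPM in the tumour libraries (5.598 ± 0.41). Dusp5, a phosphatase of ERK, rose by 2.001 ± 0.16. Its relative Dusp6 rose by 1.95 ± 0.27, and the Sprouty and SPRED feedback inhibitors Spry1, Spry2, Spry4, Spred1 and Spred2 by 1.01, 1.67, 1.25, 2.33 and 1.16. Etv5, the close relative of Etv4, was not called, at 151 to 220 CPM in the controls and 179 to 271 CPM in the tumour libraries (adjusted p = 0.208). The 3 that fell were Flrt3, which encodes a membrane protein that binds FGF receptors (-1.16 ± 0.15), Ptch1, the Hedgehog receptor gene (-0.85 ± 0.17), and the AP-1 gene Fosl1 (-1.28 ± 0.39). Shh, an epithelial signal to the mesenchyme, rose by 2.27 ± 0.26, and Bmp4 by 1.43 ± 0.14.

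**Figure D5:**
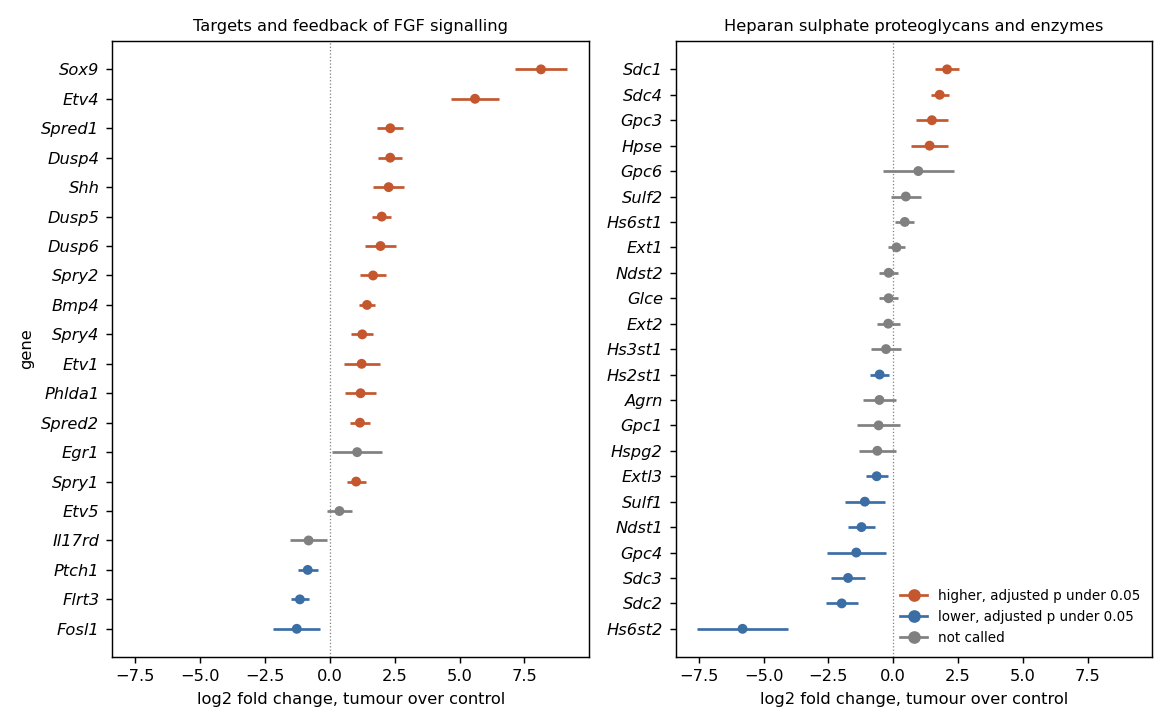
Log2 fold change with its 95% interval for 20 targets and feedback genes of FGF signalling (left) and 23 genes of heparan sulphate proteoglycans and their enzymes (right); orange and blue mark genes called higher and lower. Sox9 and Etv4 stand apart on the left at 8.14 and 5.598, and Hs6st2 on the right at -5.81.

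Of 23 heparan sulphate genes, 4 were called higher and 8 lower, with a median of -0.28, where 18.1% and 23.8% of all genes were; the 8 became 5, 4 and 5 without control replicate 2, control replicate 3 or tumour replicate 4. The proteoglycan core gene Sdc1, syndecan 1, had 113.6, 101 and 97.9 CPM in the controls and 538, 431 and 348 CPM in the tumour libraries (2.08 ± 0.20), and Sdc4, another core gene, rose by 1.79 ± 0.15. Gpc3, a glypican, rose by 1.49 ± 0.27. The core genes Sdc2 and Sdc3 fell by 1.99 and 1.74 on the log2 scale. Hs6st2, a sulphotransferase that adds a 6-O-sulphate used in FGF binding, had 3.89, 6.95 and 4.79 CPM in the controls and 0.1798, 0 and 0.0868 CPM in the tumour libraries (-5.81 ± 0.76), while its relative Hs6st1 was not called, at 13.0 to 15.8 CPM and 17.7 to 21.1 CPM (adjusted p = 0.0575).

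Of 12 co-receptors and FGF-binding proteins, 6 fell and none rose, with a median of -0.73, beside 23.8% of all genes called lower and 18.1% higher. Fgfbp1, a carrier that frees FGFs from the matrix, had 19.1, 13.98 and 11.5 CPM in the controls and 0.262, 0.575 and 0.260 CPM in the tumour libraries, a log2 difference of -5.33 ± 0.41 (adjusted p = 4.18e-05). Flrt2 and Flrt3, membrane proteins of 1 family, fell by 2.99 and 1.16 on the log2 scale. Flrt3 was counted among the targets as well. Fgfrl1, a receptor without a kinase domain, was not called, at 8.07 to 11.05 CPM in the controls and 8.22 to 10.7 CPM in the tumour libraries. Of 12 adaptors and transducers, 3 rose (Shc1, Sos2 and Sos1, by 1.47, 0.62 and 0.42) and Ptpn11 was called lower (-0.43, adjusted p = 0.0491), with a median of 0.00, beside 18.1% and 23.8% of all genes. The Ptpn11 call was lost with DESeq2 and without control replicate 2, control replicate 3 or any 1 tumour library. Frs2, the adaptor that docks on FGF receptors, was not called (54.1 to 57.5 CPM in the controls and 50.8 to 73.4 CPM in the tumour libraries, adjusted p = 0.728). Among 10 splicing factors known to act on FGF receptor exons, 3 rose, with a median of 0.46, beside 18.1% of all genes, and 5 did without tumour replicate 2. Esrp1 and Esrp2, which favour the epithelial forms of the receptors, rose by 2.31 ± 0.14 and 1.28 ± 0.13, with 21.6 to 23.4 CPM of Esrp1 in control lung and 104 to 125 CPM in tumours, and Celf1 by 0.54 ± 0.15.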

How the data were processed

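RNA of bulk tissue was sequenced in 3 control lung and 3 tumour libraries, and the deposited values are unnormalized counts for each gene name. The authors' counting used featureCounts 1.6.5 on exons, summed by name, per the file headers (GENCODE vM1, on mm9), counting a read for every name it overlaps, with no strand setting and without joining pairs. The submitters' processing notes also name STAR, limma, edgeR, R 3.6.0 and the builds GRCm38 and mm9, with no version of STAR. The deposited length, exon bases per name, was used for levels per kilobase.

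Counts were tested with edgeR 4.0.16 (R 4.3.3): filterByExpr at a minimum count of 10, scaling by TMM, a quasi-likelihood F test on group alone, and p-values adjusted by Benjamini-Hochberg over the 20001 genes tested, called at an adjusted p under 0.05. A gene that was low in either group could pass the filter through the other group alone. Sox9, Hs6st2 and the genes Kl and Ncam1 of the co-receptor list did so. Standard errors came from the F statistic, and log2 CPM used a prior count of 2. A depth of 38996532 to 62336537 reads puts 3 counts at 0.0481 to 0.0769 CPM. Alternatives were DESeq2 1.42.0, limma-voom (limma 3.58.1), other scalings and filters, a 2-fold threshold, each library left out, and a replicate block; taking off the reads of overlapping names was chosen after seeing the data. The members and lists (6 of the pathway, 13 of cell type markers, 180 entries, all matched, 1 by an older name) were chosen with earlier results of these data known. Named genes were the members, up to 3 called genes with the smallest p in each direction of a pathway list or any gene of it whose role the text describes, the summed level of each marker list, and the 2 genes nearest to each member among genes averaging 2 or more in log2 CPM. Promoter windows came from RefSeq on GRCm38.p6, a build other than that of the counts, and were used for sequence only.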

Additional observations from a re-analysis of the deposited data

How the results depend on the processing

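Of the 10 members, 8 or 9 were called under every alternative run, and no member changed direction. Leaving out each library in turn gave 8 to 9 called members and 6421 to 9436 called genes over all. Fgf9 and Fgf2 lost their calls under some of them. Besides limma-voom and the 2 control libraries named above, the call of Fgf9 was lost with the replicate block (log2 fold change 2.97, adjusted p = 0.0925), and it was too low for a filter of 1 CPM in 3 libraries. Without any scaling factor the median of all genes moved from 0.01 to -0.10, which changed no call of a member. Tumour and control share the replicate numbers 1 and 2 only, and the deviations of same-numbered libraries correlated at -0.182 and -0.00858, so the numbers do not show a pairing; the block, which rests on those 4 libraries, left 3641 called genes (1092 higher, 2549 lower) and changed no other call of a member. Against a change of at most 2-fold, 3965 genes were called (1056 higher, 2909 lower).

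Among the pathway lists, the 2-fold test left 9 targets higher and 0 lower, 2 heparan sulphate genes higher and 3 lower, and 1 adaptor higher and 0 lower. With the replicate block, 3 heparan sulphate genes and 1 target were lower and 1 adaptor was higher and 0 lower. The heparan sulphate genes called lower ranged from 4 to 11 when single libraries were left out (5 without control replicate 2, 4 without control replicate 3 and 5 without tumour replicate 4). Library totals alone left 1 adaptor higher. The 1 adaptor called lower, Ptpn11, was at 0 under upper quartile scaling, no filter, DESeq2, without mitochondrial names, and without control replicate 2 or 3 or any 1 tumour library (range 0 to 1). Splicing factors called higher numbered 5 without mitochondrial names and 5 without tumour replicate 2 (range 2 to 5). The causes were not tested. With all overlapping reads taken off, Fgf2 was too low to be tested. At this depth Fgf9 and Fgf18 rest on few reads.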

Other observations

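The other 16 FGF ligand genes were mostly silent. Only 4 of them passed the filter on low counts, of which 3 fell and 0 rose, beside 23.8% and 18.1% of all genes tested. The 3 that fell passed the filter through the controls alone, where they were higher, so the filter itself shaped this count. These 4, Fgf11, Fgf12, Fgf13 and Fgf14, are the FGF homologous factors, which stay inside the cell and bind sodium channels of nerve and heart. The count therefore covers no secreted ligand. Fgf12 had 40, 196 and 55 reads in control replicates 1, 2 and 3 and 4, 0 and 0 in tumour replicates 1, 2 and 4 (log2 fold change -6.04 ± 0.93, edgeR adjusted p = 0.00122). The 5 cardiac muscle markers summed to 82.2, 534 and 173 CPM in the same controls and 8.01 to 30.3 CPM in tumours, and their part in the level of Fgf12 was not tested. Fgf13 and Fgf14 fell by 3.33 and 3.37 on the log2 scale (adjusted p = 0.000628 and 0.0134), and Fgf11, the fourth factor of this kind, was not called, at 5.19 to 5.24 CPM in control lung and 3.71 to 4.75 CPM in tumours. Fgf20, a close relative of Fgf9, was too low to be tested, with 1, 0 and 3 reads in control lung and 18, 8 and 2 in tumours. Fgf3, Fgf6, Fgf15 and Fgf21 had no read in any of the 6 libraries, where 3 counts would be 0.0481 to 0.0769 CPM.

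Genes with a pattern like that of a member were found by the root mean square difference of log2 CPM, centred on each gene's mean over the 6 libraries. With 2 groups of 3 libraries, such likeness rests mostly on the size of the group difference. Nearest to Fgfr2 were Tmem135 (0.114 log2 units) and Gstt1 (0.114), nearest to Fgfr4 were Mxra7 (0.247) and Plce1 (0.256), nearest to Fgfr3 were Inpp5a (0.0592) and Lonrf1 (0.0817), and nearest to Fgfr1 were Prkce (0.119) and Robo4 (0.140). Among the ligands, Fgf7 was nearest to Gulp1 (0.213) and Prex2 (0.275), Fgf10 to Nebl (0.152) and Akr1c14 (0.157), Fgf18 to Chst2 (0.123) and Limch1 (0.128), Fgf2 to Bmp1 (0.141) and Lrrc8c (0.142), and Fgf1 to Eif2b3 (0.0395) and Zcchc7 (0.0488). Fgf9 had the least close neighbours, Capn6 (0.443) and Pf4 (0.597). Picked for likeness to Fgf9 in these same libraries, both were higher in tumours and lowest among tumours in replicate 2, as was Fgf9. Capn6 had 30.5, 5.46 and 14.3 CPM and Pf4 92.5, 25.6 and 60.5 CPM in tumour replicates 1, 2 and 4.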
